A study of Mus musculus with 12 samples.

Results

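The genes described here are the nuclear-encoded genes of oxidative phosphorylation, measured in mouse dorsal root ganglia after the sciatic nerve had been injured (SNI) or only a sham operation done. They were taken by symbol: Nduf followed by a, b, c, s or v and a digit (complex I), Sdha to Sdhd (complex II), Uqcr and Cyc1 (complex III), the Cox4 to Cox8 subunit genes (complex IV) and Atp5 (complex V). This gave 85 of 23238 gene symbols, with 37 in complex I, 4 in complex II, 9 in complex III, 18 in complex IV and 17 in complex V. The animals were C57BL/6 mice aged 8 weeks after birth, and the ganglia were those of lumbar levels 3 to 5. The 4 groups were Female sham, Female SNI, Male sham and Male SNI, with 3 libraries each. No transgene, allele or drug is named for any group, and neither the kind of lesion nor the time after it is stated. Whether the libraries of a group came from separate animals is not said, so the p-values rest on a spread that could be technical.

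Oxidative phosphorylation is the set of reactions in the inner mitochondrial membrane that makes most of the ATP of a neuron. Complex I takes electrons from NADH and complex II from succinate, complex III passes them to cytochrome c, complex IV hands them to oxygen, and complex V uses the resulting proton gradient to make ATP. Sensory neurons of the dorsal root ganglion have long axons and depend strongly on this supply. The complexes are built from nuclear and mitochondrial genes, except complex II, which is wholly nuclear. No gene symbol in the counts began with mt-, the prefix of mitochondrially encoded genes, so the mitochondrially encoded subunits are not analysed here.

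Libraries held 12476606 to 15520746 counts. All levels are CPM, read counts set against a common library total after scaling by trimmed means of M values (TMM). The library kit reads the 3′ ends of transcripts, so a level was not divided by transcript length. Where 3 levels are given for a group, they are replicates 1, 2 and 3 in that order. Neuron markers (Rbfox3, Uchl1, Snap25, Tubb3, Prph, Elavl4, Avil and Isl1) summed to 11227 to 15105 CPM per library, so markers of the labelled tissue were present. The muscle markers stood apart in a single library: their sum was 1584 CPM in Male SNI replicate 1 and 6.67 to 68.8 CPM in the other 11. Male SNI replicate 2 and Female sham replicate 2 stood apart for the members themselves, as described further on. Of the 85 members, 82 passed the filter on low counts. Cox7b2 and Cox8c, testis-type subunit genes of complex IV, and Cox8b, a muscle-type one, did not: Cox7b2 had 7 counts in all libraries together, Cox8b 65 and Cox8c 0.

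Promoters are shown because many of these genes are known targets of nuclear respiratory factor 1 (NRF1), a transcription factor of mitochondrial genes whose site is a palindrome. RefSeq promoter windows of 300 bases on GRCm38.p6, from 250 bases before to 50 after the start site, were at hand for 69 of the 85 members. The letters GCGCANGCG, in which N is any base, were found on either strand in 20 of these 69 members (29.0%) and in 7.03% of all genes with a window. CGCATGCG, a palindrome that overlaps those letters, was found in 9 members (13.0%) against 2.07% of all genes. For the YY1 letters AAGATGGCG the shares were 11.6% (8 members) and 1.64%, for the GABPA letters CCGGAAGT 7.25% (5 members) and 4.31%, and for the ESRRA letters TCAAGGTCA 2.90% (2 members) and 0.466%. These are matches of letters, not measured binding. Besides Ndufa11, Uqcrc1 and Atp5k, the palindrome was found in Atp5g2, Atp5j, Atp5l, Cox6a1, Ndufa8 and Uqcr11. A link between these letters and the change after injury was not tested. Below are the windows of Ndufa11, Uqcrc1 and Atp5k, picked after their values were seen, whose levels in females are described later. Each reads 5′ to 3′ on the gene's strand, with the palindrome in capitals.
Ndufa11 (chr17:56717512-56717811, plus strand, GRCm38.p6): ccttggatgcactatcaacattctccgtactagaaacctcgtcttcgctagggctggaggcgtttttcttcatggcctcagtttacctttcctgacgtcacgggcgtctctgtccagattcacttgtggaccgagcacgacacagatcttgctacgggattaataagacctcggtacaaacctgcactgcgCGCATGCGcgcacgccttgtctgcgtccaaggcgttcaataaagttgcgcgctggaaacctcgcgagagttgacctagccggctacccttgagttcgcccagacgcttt
Uqcrc1 (chr9:108936398-108936697, plus strand, GRCm38.p6): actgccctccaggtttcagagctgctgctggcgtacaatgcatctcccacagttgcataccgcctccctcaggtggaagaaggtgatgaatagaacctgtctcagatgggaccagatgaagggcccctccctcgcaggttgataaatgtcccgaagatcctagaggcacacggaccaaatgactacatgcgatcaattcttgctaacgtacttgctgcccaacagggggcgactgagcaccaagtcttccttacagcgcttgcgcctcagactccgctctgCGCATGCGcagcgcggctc
Atp5k (chr5:108434350-108434649, minus strand, GRCm38.p6): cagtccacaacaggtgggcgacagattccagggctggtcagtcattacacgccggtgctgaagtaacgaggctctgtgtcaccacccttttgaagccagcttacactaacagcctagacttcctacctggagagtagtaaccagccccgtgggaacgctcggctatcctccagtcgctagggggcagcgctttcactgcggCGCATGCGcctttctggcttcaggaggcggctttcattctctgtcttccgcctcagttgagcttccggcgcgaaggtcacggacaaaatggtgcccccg
Counting bases from the annotated start, the palindrome began at -59 in Ndufa11, at -49 in Atp5k and at 31 in Uqcrc1.

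The first question was whether injury changed the level of these genes. No member rose or fell after injury by edgeR's quasi-likelihood test at an adjusted p below 0.05, whether averaged over the sexes, in females or in males. Averaged over the sexes, 0 of 82 members were called, where 6.52% of all tested genes were (980 of 15036). For genes with a mean of at least 50 CPM, which 73 of the members reached, that share was 11.7%. In females it was 2.89% of all tested genes and in males 2.13%. At an unadjusted p below 0.05 there were 6 members averaged over the sexes, all lower after injury, 8 in females, all lower, and 8 in males, 4 higher and 4 lower. Of the 15036 tested genes, 2764, 2280 and 2185 passed that mark in the same order, larger shares than among the members. DESeq2 called 1 member averaged over the sexes (Uqcrc2, lower) and 0 in either sex. The limma fit with sample quality weights called 2 (Ndufa11 and Uqcrc2, both lower), 5 in females (Atp5k, Ndufa11, Ndufs6, Uqcrc1 and Uqcrc2, all lower) and 0 in males. Over all tested genes the weighted limma fit called 2008 averaged over the sexes, 1562 in females and 693 in males. Each was a larger share than among the members. Over all genes DESeq2 called 777 in females and 666 in males. Averaged over the sexes, the alternative settings apart from single left-out libraries, DESeq2 among them, called 931 to 2008 genes.

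The fitted changes were small and mostly below 0. Averaged over the sexes, 63 of 82 members (76.8%) had a negative log2 change, against 49.5% of all tested genes and 50.2% of those with at least 50 CPM. The median log2 change was -0.05 for the members and 0.00 for all tested genes. The 95% interval of the change lay wholly inside 1.5-fold either way for 67 of 82 members, against 45.1% of all tested genes. Part of that gap went with abundance: the median level was 157 CPM for members and 16.2 CPM for all tested genes. Of the members with at least 50 CPM, 64 of 73 had an interval inside 1.5-fold, beside 80.6% of all such genes. Within 1 sex the intervals were wider: 49 members were inside 1.5-fold in females and 49 in males, where all tested genes gave 25.0% and 25.1%. In females 57 members were negative with a median of -0.13, and in males 39 were negative with a median of 0.03. These medians shifted with single libraries. With 1 library left out the male median ran from -0.03 to 0.07, and it was negative without Male sham replicate 3 and without either replicate 1 or replicate 2 of Male SNI. The female median stayed negative and was -0.08 without Female sham replicate 2, and the median averaged over the sexes was -0.09 without Male SNI replicate 1. On library totals without a scaling factor, 65 members were negative averaged over the sexes, 54 in females and 52 in males, and the male median was then -0.05, beside -0.07 for all tested genes.

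**Figure D1:**
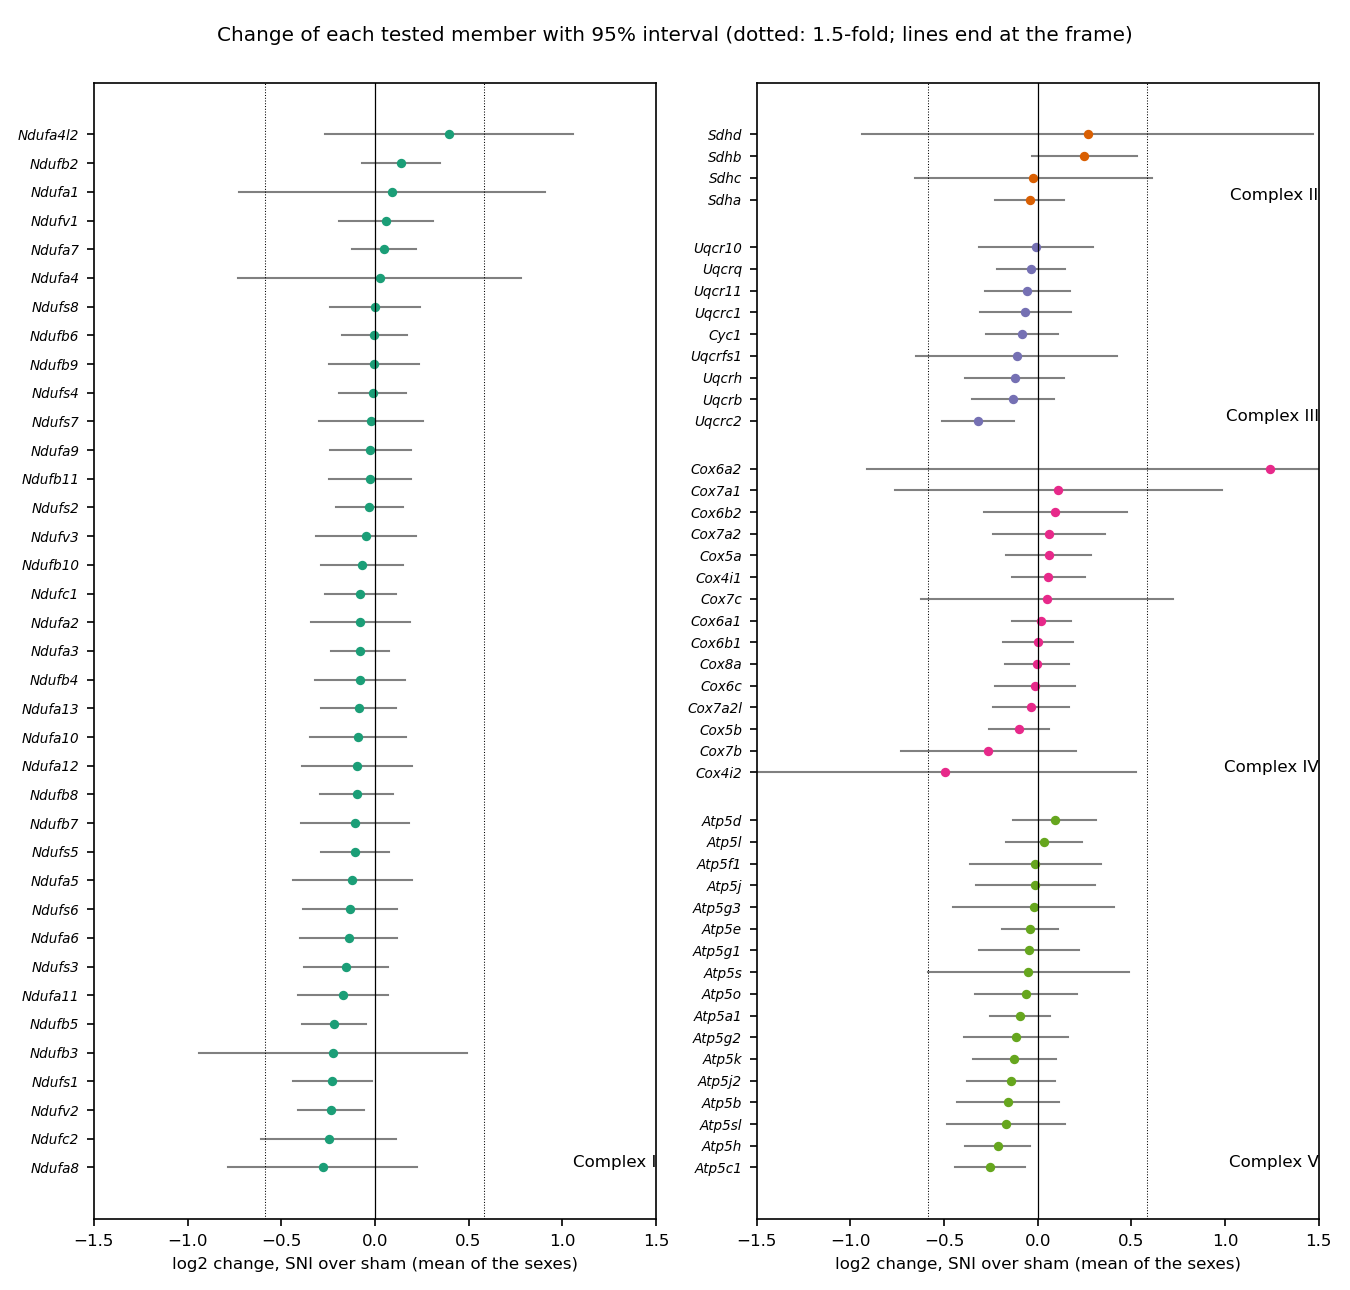
Fitted log2 change, SNI over sham averaged over the sexes, for the 82 tested members by complex; points are estimates, lines 95% intervals from the edgeR fit, dotted lines 1.5-fold. All 9 complex III points lie left of 0, and the low-level genes Cox6a2 and Cox4i2 have intervals that run past the frame.

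By complex, the median log2 change averaged over the sexes was -0.08 in complex I (31 of 37 negative), 0.11 in complex II (2 of 4), -0.08 in complex III (9 of 9), 0.02 in complex IV (6 of 15 tested) and -0.06 in complex V (15 of 17). The summed level of all members was 16722 ± 638 CPM in Female sham (SD, n = 3), 15586 ± 552 in Female SNI, 16769.7 ± 272 in Male sham and 16617 ± 1379 in Male SNI. As log2 ratios of SNI to sham, these sums were -0.10 in females and -0.02 in males. Without the 3 libraries described further on (Male SNI replicates 1 and 2 and Female sham replicate 2) they were -0.07 in females and -0.15 in males. The order of the sexes thus turned, but Male SNI was then replicate 3 alone, the lowest of its group at 15062.5 CPM. Complex III gave the lowest ratio in females, -0.21: its summed level was 2051, 2259.8 and 2052 CPM in Female sham and 1871, 1872 and 1769 CPM in Female SNI, so the groups did not overlap. In males its sums were 2142, 2109.8 and 1925 CPM in sham and 2122, 2355 and 1732 CPM in SNI, which overlapped. Complex I had the same order in females, with SNI libraries between 4962 and 5316 CPM and sham libraries between 5509 and 6067 CPM, and overlapped in males. Complex IV differed least, with a ratio of 0.00 averaged over the sexes. Complex II had the highest ratio, 0.11, and without its most abundant member Sdhb the ratio was -0.02.

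**Figure D2:**
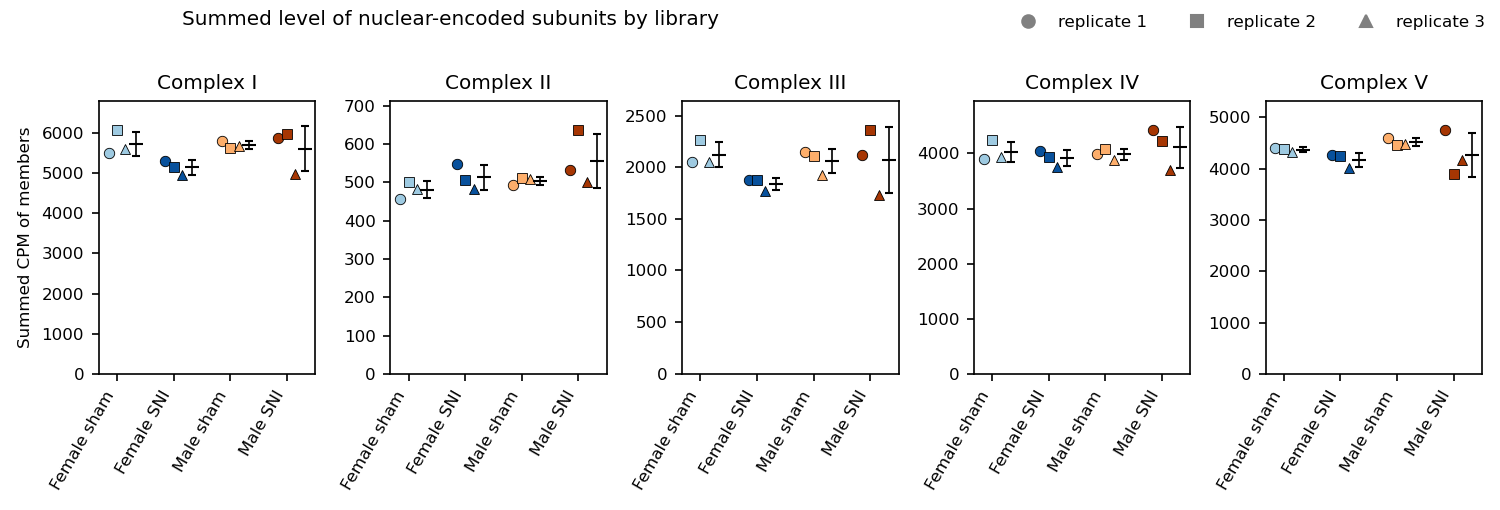
Summed CPM of the members of complexes I to V in each library, with 1 point per library and bars for the mean ± SD of each group (n = 3). In complexes I, III and V the 3 Female SNI points lie below the 3 Female sham points, and the Male SNI points are the most spread.

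Complex III is the cytochrome bc1 complex, and Uqcrc2, one of its core proteins, came closest to a call. Uqcrc2 was measured at 240.2, 206 and 224 CPM in Female sham, 189, 178 and 180.3 CPM in Female SNI, 216, 229 and 232 CPM in Male sham and 207, 146 and 178 CPM in Male SNI. Every SNI library was below every sham library in each sex. Uqcrc2 was the only member of which this was true in both sexes, a pattern shown by 2.82% of all tested genes. Its log2 change was -0.32 ± 0.09 (SE, adjusted p = 0.0518) by edgeR's quasi-likelihood test, with a 95% interval of -0.51 to -0.12. It was called lower by DESeq2, by weighted limma, with replicate number as a block (edgeR, adjusted p = 0.0449) and without Male SNI replicate 1 or 2. In females it was -0.29 ± 0.13 (SE, adjusted p = 0.295), and in males -0.35 ± 0.13 (SE, adjusted p = 0.221), by the same test. The exons of Uqcrc2 share 504 bases with Pdzd9 on the other strand, and the strand setting of the counting is not stated. Pdzd9 held 7923 counts against 33832 for Uqcrc2, and its own log2 change was -0.43 ± 0.15 (SE, adjusted p = 0.115) by the edgeR fit, so the level of Uqcrc2 is uncertain. Exons of Atp5d, Cox4i1, Cox6a2, Ndufa4l2, Ndufa11, Ndufb8 and Ndufs6 also overlap another annotated gene, by 30 to 154 bases. Those of Atp5f1 share 337 bases with Wdr77 and 203 with Gm42890, those of Cox5a 269 with Gm26631 and those of Atp5g2 75 with Mir688. The levels of all these members share that uncertainty.

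The most abundant complex III gene was Uqcrh, the hinge protein near cytochrome c1. The levels of Uqcrh were 585, 691 and 574 CPM in Female sham and 528, 499 and 468 CPM in Female SNI, with 638, 608 and 489.9 CPM in Male sham and 592, 774 and 446 CPM in Male SNI. In females all SNI libraries were below all sham libraries, while the male groups overlapped. The log2 change was -0.12 ± 0.12 (SE, adjusted p = 0.682) averaged over the sexes (edgeR). Uqcr10, a small subunit, had the change nearest to 0 of the complex, -0.01 ± 0.14 (SE, adjusted p = 0.993) by edgeR. Female sham libraries held 191, 265 and 230.1 CPM of Uqcr10 and Female SNI libraries 195, 198 and 188 CPM, while Male sham held 216, 209 and 223 CPM and Male SNI 234, 353 and 173 CPM. Male SNI replicate 2 was the highest library and Male SNI replicate 3 the lowest.

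In complex I, Ndufb8, an accessory subunit of the membrane arm, had the most counts. In Female sham Ndufb8 stood at 372, 461 and 416 CPM and in Female SNI at 400.1, 386 and 364 CPM, in Male sham at 433, 442 and 443 CPM and in Male SNI at 453, 455 and 343 CPM. These levels overlapped in both sexes, and the log2 change was -0.10 ± 0.09 (SE, adjusted p = 0.654) by edgeR. The 7 nuclear core subunits, which carry the flavin and the iron-sulfur clusters, had a median log2 change of -0.03, with 6 of 7 negative and 0 called. Among them Ndufv2, an iron-sulfur protein of the NADH-binding module, had -0.23 ± 0.08 (SE, adjusted p = 0.122) by edgeR. For Ndufv2 the 3 libraries gave 203, 200.5 and 200.2 CPM in Female sham, 173, 174 and 186 CPM in Female SNI, 217, 226 and 185 CPM in Male sham and 191, 156 and 167 CPM in Male SNI. In each sex the SNI libraries were lower, except that Male SNI replicate 1 at 191 CPM was above Male sham replicate 3 at 185. Ndufs1, the largest iron-sulfur subunit of that module, had -0.23 ± 0.10 (SE, adjusted p = 0.226) by edgeR. Counts of Ndufs1 came to 153, 102 and 119 CPM in Female sham, 99.5, 106 and 102 CPM in Female SNI, 137, 122 and 129 CPM in Male sham and 117, 120.2 and 107 CPM in Male SNI. Female sham replicate 2 was as low as the Female SNI libraries, and the male groups did not overlap. Ndufs1 shares 489 exon bases with Ino80dos and 9 with Eef1b2 on the other strand.

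Ndufb5, an accessory subunit of the membrane arm, had the smallest p of any member within 1 sex. Normalised levels of Ndufb5 were 138, 124 and 129.7 CPM (Female sham), 126, 128 and 118 CPM (Female SNI), 139, 141 and 141 CPM (Male sham) and 123, 104 and 100.4 CPM (Male SNI). The male groups did not overlap and the female groups did. Its log2 change was -0.36 ± 0.11 (SE, adjusted p = 0.131) in males and -0.07 ± 0.11 (SE, adjusted p = 0.83) in females (edgeR), and the difference between these was -0.29 ± 0.16 (SE, adjusted p = 0.647) by the interaction term of the same fit. Ndufb5 shares 616 exon bases with Mrpl47 on the other strand. The lowest log2 change in the complex belonged to Ndufa8, an accessory subunit facing the intermembrane space, -0.28 ± 0.23 (SE, adjusted p = 0.607) by edgeR. Ndufa8 was measured at 125, 68 and 107 CPM in Female sham, 114, 110.4 and 104 CPM in Female SNI, 136, 137 and 140.4 CPM in Male sham and 108, 33.5 and 115 CPM in Male SNI. That value rested on Male SNI replicate 2: without this library the log2 change was -0.08.

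Complex II has 4 genes, and Sdhb, its iron-sulfur subunit, had the most counts. The levels of Sdhb were 204, 299 and 274 CPM in Female sham and 298, 259 and 259 CPM in Female SNI, with 235, 242 and 229 CPM in Male sham and 309, 409 and 230.3 CPM in Male SNI. The log2 change was 0.25 ± 0.13 (SE, adjusted p = 0.349) averaged over the sexes and 0.43 ± 0.19 (SE, adjusted p = 0.304) in males (edgeR). Male SNI replicate 3, at 230.3 CPM, lay within the male sham range, and the other male SNI libraries above it. Without Male SNI replicates 1 and 2 and Female sham replicate 2, the averaged log2 change was 0.08. Sdha, the flavoprotein that oxidises succinate, had -0.04 ± 0.09 (SE, adjusted p = 0.865) by edgeR. Female sham libraries held 158, 165 and 156 CPM of Sdha and Female SNI libraries 169.7, 156 and 152 CPM, while Male sham held 184, 192 and 180.4 CPM and Male SNI 161, 207 and 157 CPM. The membrane anchor Sdhd was counted at a low level and varied within every group. In Female sham Sdhd stood at 9.89, 1.06 and 5.73 CPM and in Female SNI at 6.7, 9.86 and 6.83 CPM, in Male sham at 8.98, 5.97 and 15.9 CPM and in Male SNI at 3.33, 2.38 and 26.1 CPM. Its log2 change was 0.27 ± 0.56 (SE, adjusted p = 0.876) by edgeR, with a 95% interval of -0.94 to 1.47. With this spread between libraries a 2-fold rise could not be told from no change.

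In complex V, Atp5g3, one of 3 genes for the proton-carrying c-ring, was the most abundant of all members. For Atp5g3 the 3 libraries gave 868, 616 and 741 CPM in Female sham, 974, 966 and 813 CPM in Female SNI, 928, 984 and 907 CPM in Male sham and 934, 329 and 945 CPM in Male SNI. Male SNI replicate 2 had the lowest level, and the other Male SNI libraries lay inside the male sham range. The log2 change was -0.02 ± 0.20 (SE, adjusted p = 0.98) by edgeR. The 3 c-ring genes had a median of -0.05, and the 5 genes of the F1 head had a median of -0.10 with 4 of 5 negative; none of them was called. Atp5c1, the rotating shaft of the head, had the lowest change in the complex, -0.25 ± 0.09 (SE, adjusted p = 0.111) by edgeR. Counts of Atp5c1 came to 113, 101 and 109 CPM in Female sham, 90.9, 86 and 93 CPM in Female SNI, 114, 109 and 106 CPM in Male sham and 108, 82.1 and 86.3 CPM in Male SNI. The female groups did not overlap, and in males only Male SNI replicate 1 reached the sham range. Atp5d, another part of the shaft, had the highest, 0.09 ± 0.10 (SE, adjusted p = 0.733) by edgeR. Normalised levels of Atp5d were 411, 504 and 454 CPM (Female sham), 434, 390.02 and 419.9 CPM (Female SNI), 347, 422 and 317 CPM (Male sham) and 448, 532 and 376 CPM (Male SNI). In males its log2 change was 0.32 ± 0.15 (SE, adjusted p = 0.333) and in females -0.14 ± 0.15 (SE, adjusted p = 0.727). The symbols Atp5s and Atp5sl match Dmac2l and Dmac2 in RefSeq, which are named for complex assembly and not for a subunit.

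The second question was whether the sexes differed. Of 82 members, 21 had every Female SNI library below every Female sham library, and 2 (Atp5f1 and Cox5a) had every one above, where 13.4% and 13.1% of all tested genes did. The 21 were 10 of complex I, 4 of complex III, 2 of complex IV and 5 of complex V. In males 8 members were lower without overlap and 2 (Cox6b2 and Ndufa4l2) higher, where the shares of all tested genes were 8.83% and 9.09%. The summed neuron markers were also lower in females after injury, between 11227 and 11865 CPM in Female SNI and between 13038 and 14643 CPM in Female sham. Of these markers Rbfox3, Uchl1, Prph, Elavl4 and Isl1 were each lower in all Female SNI libraries, and Snap25, Tubb3 and Avil overlapped. In males the neuron sums overlapped, at 11656 to 12944 CPM in sham and 11936 to 15105 CPM in SNI. Single markers again differed: Rbfox3, Snap25, Elavl4 and Isl1 were lower in all Male SNI libraries, Tubb3 was higher, and Uchl1, Prph and Avil overlapped. Male SNI replicate 2 had both the highest sum and the highest Uchl1 of the male libraries, 7212 CPM. Averaged over the sexes, Rbfox3 and Isl1 fell by 0.35 and 0.32 on the log2 scale (edgeR, adjusted p of 0.0273 and 0.0281). Macrophage markers were higher after injury in both sexes, at 111 to 156 CPM against 267 to 329 CPM in females and 96.3 to 129 CPM against 223 to 392 CPM in males. The part of these markers in the members' levels was not tested. In whole ganglia, fewer cells of a type and less RNA per cell cannot be told apart.

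Ndufa11, a membrane arm subunit that steadies complex I, was lower in all Female SNI libraries. Ndufa11 was measured at 236, 253 and 254 CPM in Female sham, 184, 176 and 193 CPM in Female SNI, 236, 223 and 179 CPM in Male sham and 199.7, 289.5 and 186 CPM in Male SNI. The female groups did not overlap, and the male groups did. Females gave a log2 change of -0.42 ± 0.16 (SE, adjusted p = 0.204) by edgeR and males 0.08 ± 0.16 (SE, adjusted p = 0.862). Uqcrc1, the partner of Uqcrc2 in the core of complex III, had the same order. The levels of Uqcrc1 were 263, 271 and 242 CPM in Female sham and 186, 194 and 200.3 CPM in Female SNI, with 237, 207 and 179 CPM in Male sham and 239.9, 324 and 199 CPM in Male SNI. In females its log2 change was -0.42 ± 0.16 (SE, adjusted p = 0.213), and in males, where the groups overlapped, 0.29 ± 0.16 (SE, adjusted p = 0.44) (edgeR). Atp5k, subunit e of ATP synthase, which helps the enzyme form dimers, was again lower in all Female SNI libraries. Female sham libraries held 194, 227 and 198 CPM of Atp5k and Female SNI libraries 146, 157 and 161 CPM, while Male sham held 185, 169 and 167 CPM and Male SNI 202, 232 and 149.7 CPM. Its log2 change was -0.41 ± 0.15 (SE, adjusted p = 0.174) in females and 0.16 ± 0.15 (SE, adjusted p = 0.659) in males (edgeR).

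Ndufs6, a zinc-binding accessory subunit of complex I, and Ndufa5, a subunit of its peripheral arm, had the lowest female values of the unadjusted group, -0.45 ± 0.17 (SE, adjusted p = 0.197) and -0.47 ± 0.21 (SE, adjusted p = 0.302) by edgeR. In Female sham Ndufs6 stood at 192, 241 and 190.4 CPM and in Female SNI at 145, 156 and 156 CPM, in Male sham at 175, 181 and 176 CPM and in Male SNI at 192, 259 and 152 CPM. For Ndufa5 the 3 libraries gave 242, 347 and 274 CPM in Female sham, 222, 197 and 203 CPM in Female SNI, 282, 245 and 251 CPM in Male sham and 324, 396 and 193 CPM in Male SNI. In both genes the female groups did not overlap. Atp5h and Atp5j2, subunits d and f of ATP synthase, were lower in all Female SNI libraries too. Counts of Atp5h came to 297, 316 and 305 CPM in Female sham, 248, 257 and 259 CPM in Female SNI, 336, 278 and 326 CPM in Male sham and 296, 299 and 244 CPM in Male SNI. Normalised levels of Atp5j2 were 435, 565 and 472 CPM (Female sham), 396, 379 and 355 CPM (Female SNI), 478, 420.5 and 474 CPM (Male sham) and 549, 550.3 and 367 CPM (Male SNI). The female log2 changes were -0.27 ± 0.12 (SE, adjusted p = 0.287) for Atp5h and -0.38 ± 0.16 (SE, adjusted p = 0.247) for Atp5j2 (edgeR), and none of these passed the adjusted threshold.

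The interaction term, male change less female change, called 0 members and 0% of all tested genes by edgeR, and 0 members by DESeq2 and by the weighted limma fit. At an unadjusted p below 0.05 there were 14 members, 12 of them higher in males, where 7.32% of all tested genes passed that mark. Uqcrc1 had the smallest p of these, with 0.71 ± 0.23 (SE, adjusted p = 0.647). Without Male SNI replicate 2 and Female sham replicate 2, 4 members passed the unadjusted mark, and the term of Uqcrc1 was 0.47 with an adjusted p of 0.833. A sex difference in the response of these genes was therefore not shown, and intervals of this term lay inside 1.5-fold for 22 of 82 members. Between sham males and sham females, edgeR called 0 members and 0.0399% of all tested genes, and 1 member had an unadjusted p below 0.05 (Atp5d). DESeq2 and the weighted limma fit called 0 there as well.

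The summed levels of Male SNI replicate 3 were below every Male sham library in complexes I, III, IV and V. In complex V, Male SNI replicate 2 was lower still, at 3899 CPM against 4161 CPM. Gene by gene, Male SNI replicate 2 was often at an extreme. For 26 of 82 members it was the lowest of the 12 libraries and for 29 the highest, where 24.0% and 22.5% of all tested genes were lowest or highest in it. Female sham replicate 2 was next lowest for 16 of the 26 and next highest for 21 of the 29. Ndufa4, named for complex I but now placed with complex IV, shows the low end. Ndufa4 was measured at 101, 60.4 and 81.1 CPM in Female sham, 128, 121 and 97.7 CPM in Female SNI, 122, 119 and 156 CPM in Male sham and 142, 15.8 and 130.5 CPM in Male SNI. Male SNI replicate 2 was far below the other libraries, and Female sham replicate 2 was the next lowest. The small complex I subunit Ndufa1 had the same pattern. The levels of Ndufa1 were 79.8, 25 and 65.1 CPM in Female sham and 86.4, 91.1 and 72.4 CPM in Female SNI, with 79.7, 95.6 and 93.5 CPM in Male sham and 71.2, 12.9 and 123 CPM in Male SNI. The log2 change was 0.03 ± 0.35 (SE, adjusted p = 0.988) for Ndufa4 and 0.09 ± 0.38 (SE, adjusted p = 0.951) for Ndufa1 by edgeR, both with wide errors.

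**Figure D3:**
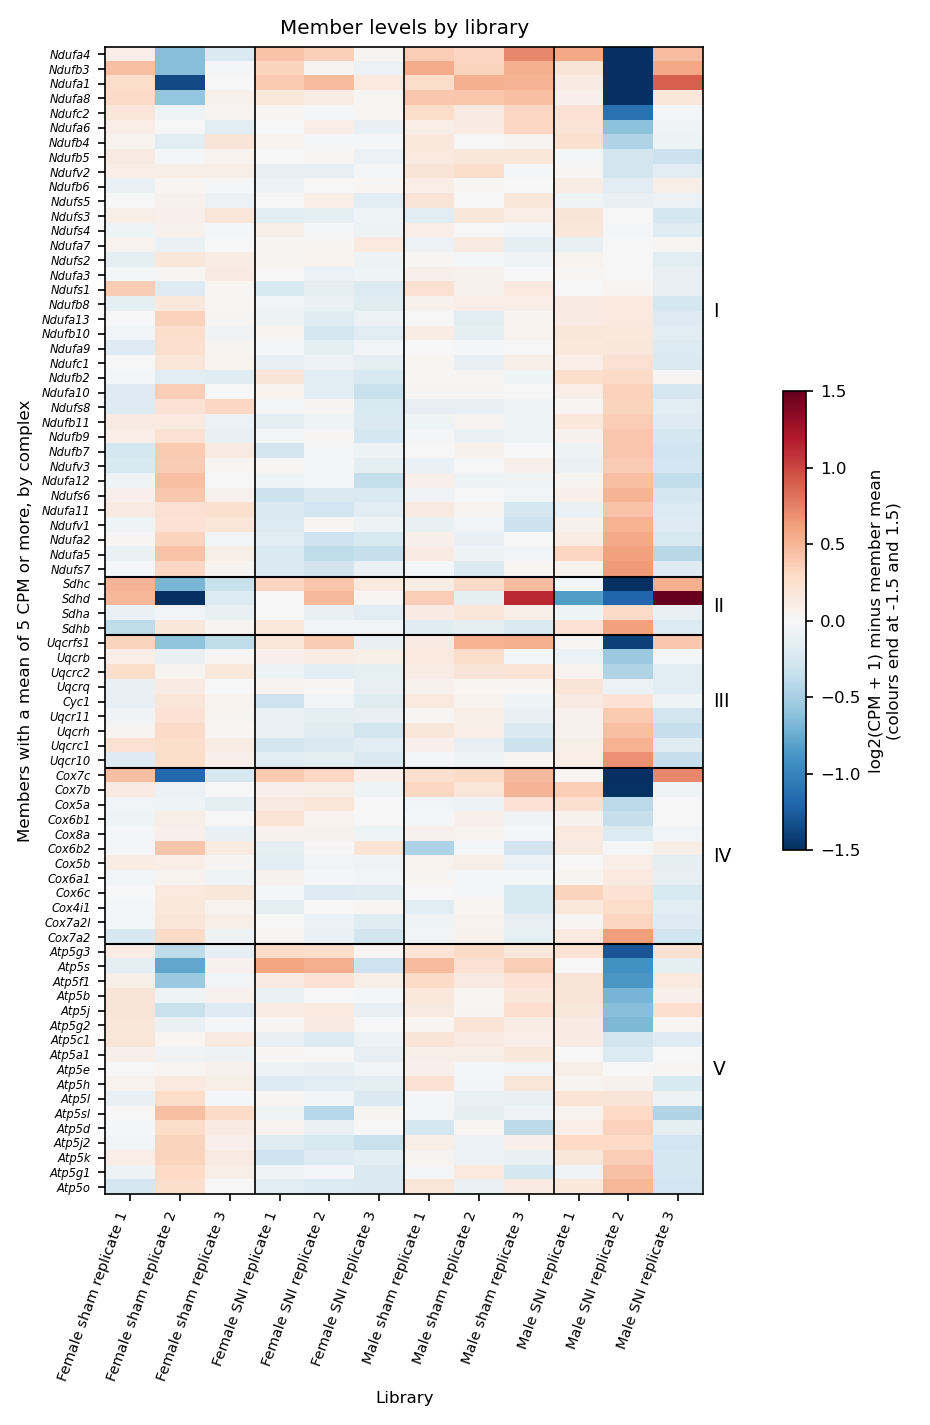
log2(CPM + 1) of each member minus its own mean over the 12 libraries, for members with a mean of at least 5 CPM; within each complex, members are ordered by their value in Male SNI replicate 2. Male SNI replicate 2 runs from blue to red in each of the 5 complexes, and Female sham replicate 2 is paler with a like order.

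The deviations of these 2 libraries from the median of the other 10, in log2(CPM + 1) on unscaled totals, ran together across members, with a Spearman rho of 0.83 and a Pearson r of 0.86 over 82 members. Over 13797 tested genes the same 2 values were 0.57 and 0.62. Both deviations are measured against the same 10 libraries, and genes are not independent replicates. The members' deviations also ran with base composition: rho with the G+C content of the last 200 transcript bases was 0.53 in Male SNI replicate 2 and 0.57 in Female sham replicate 2. Over 13797 tested genes with such a sequence the values were 0.32 and 0.29. The 20 members lowest in Male SNI replicate 2 had a median G+C of 34.5% and the 20 highest 49.0%, against 45.5% for all 82. Of those 20 lowest members 3 lay above the median G+C of all: Sdhc, an anchor of complex II, at 52.5%, Ndufb4, an accessory subunit of complex I, at 58.5%, and Atp5g2, a c-ring gene, at 63.5%. All 3 were low in Female sham replicate 2 as well. With transcript length rho was 0.01 and -0.02. What set these libraries apart was not tested.

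**Figure D4:**
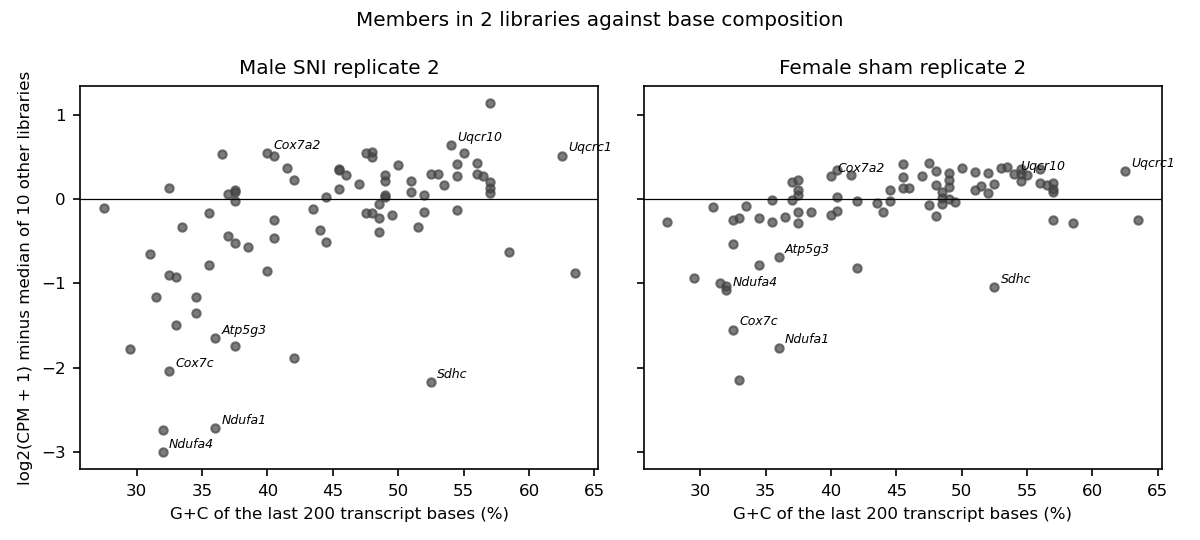
Deviation of each of 82 members in Male SNI replicate 2 (left) and Female sham replicate 2 (right) from the median of the other 10 libraries, as log2(CPM + 1), against G+C of the last 200 transcript bases in percent. Members with low G+C, such as Ndufa4 and Cox7c, reach the lowest values in both, and Sdhc lies apart.

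The count of called members depended on these libraries. Without Male SNI replicate 2 and Female sham replicate 2, 3 members fell averaged over the sexes: Uqcrc2 by 0.28, Ndufs1 by 0.30 and Ndufa11 by 0.27 on the log2 scale (edgeR, adjusted p of 0.0112, 0.0185 and 0.0327), where 12.1% of all tested genes were called. The same 3 fell in females and none in males, where 986 and 698 of 15290 tested genes were called. Leaving out Male SNI replicate 1 as well, the library with muscle transcripts, 11 members fell and 1 rose (Ndufa1), with 11.6% of all tested genes called. The 11 were Ndufa5, Ndufa11, Ndufb5, Ndufs1 and Ndufs6 of complex I, Uqcrc2 and Uqcrh of complex III, and Atp5c1, Atp5h, Atp5j2 and Atp5k of complex V. Their log2 changes ran from -0.36 (Ndufa5) to -0.27 (Ndufs6). Male SNI is then a single library, replicate 3, assumed to vary like the other groups. Its summed level over all members, 15062.5 CPM, was below Male SNI replicates 1 and 2 (17691 and 17098 CPM). It was also below every Male sham library (16490 to 17034 CPM). With only that library left out of all 12, the members' male median was 0.07. Without Male SNI replicates 1 and 2 and Female sham replicate 2, the members' median log2 change was -0.12, with -0.08 in females and -0.17 in males. The rise from 0 to 12 called members went with these 3 libraries, which the labels do not set apart.

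Complex IV was measured with its common subunits and with tissue-specific paralogs, which replace the common form in muscle, testis or hypoxic tissue. Cox6a1, the common form of subunit VIa, was its most abundant gene. Female sham libraries held 708, 759.7 and 696 CPM of Cox6a1 and Female SNI libraries 763, 715 and 709 CPM, while Male sham held 753, 719.7 and 721 CPM and Male SNI 749.8, 807 and 673 CPM. All libraries lay close together, and the log2 change was 0.02 ± 0.07 (SE, adjusted p = 0.944) by edgeR, with a 95% interval of -0.14 to 0.18. Its muscle paralog Cox6a2 was near the limit of counting in all libraries but Male SNI replicate 1. In Female sham Cox6a2 stood at 0, 0.454 and 1.55 CPM and in Female SNI at 0.715, 0 and 0.734 CPM, in Male sham at 0.445, 1.53 and 0.573 CPM and in Male SNI at 18.3, 1.54 and 0.137 CPM. The fitted log2 change of 1.24 (edgeR, adjusted p = 0.589) had a 95% interval of -0.91 to 3.39 and became -0.25 without that library. Cox8b, a muscle form of subunit VIII, had 4.47 CPM in Male SNI replicate 1 and at most 0.297 CPM elsewhere. Cox7a1, the muscle form of subunit VIIa, was highest there too. For Cox7a1 the 3 libraries gave 4.87, 4.54 and 3.03 CPM in Female sham, 1.43, 6.59 and 3.3 CPM in Female SNI, 3.71, 3.83 and 4.97 CPM in Male sham and 10.6, 3.07 and 2.33 CPM in Male SNI. Its log2 change of 0.11 ± 0.41 (SE, adjusted p = 0.942) (edgeR) became -0.38 without Male SNI replicate 1. All 10 skeletal muscle markers were highest in the same library, and Mb, the oxygen store of muscle, was at 104 CPM there and at 0 to 4.04 CPM in the others. In the sham libraries and in the other SNI libraries these paralogs stayed low, with Cox6a2 at 0 to 1.55 CPM.

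**Figure D5:**
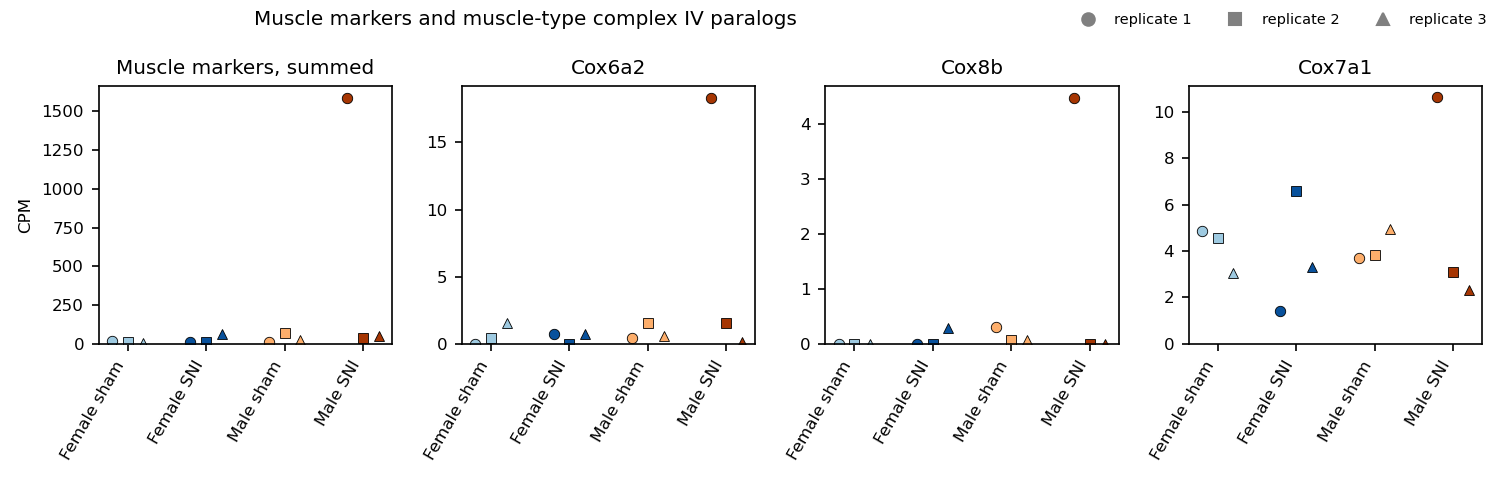
Summed CPM of 10 skeletal muscle markers and CPM of Cox6a2, Cox8b and Cox7a1 in each library; each point is 1 library, marker shapes give the replicate. Male SNI replicate 1 is the highest point in all 4 panels, at 1584 CPM for the markers and 18.3 CPM for Cox6a2.

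Cox4i2, the lung and low-oxygen form of subunit IV, and Ndufa4l2, a gene known to rise under low oxygen, were both scarce. Counts of Cox4i2 came to 1.42, 0.908 and 3.17 CPM in Female sham, 0.78, 0.544 and 1.17 CPM in Female SNI, 1.41, 1.22 and 0.7 CPM in Male sham and 1.71, 1.46 and 0.548 CPM in Male SNI. Normalised levels of Ndufa4l2 were 3, 3.03 and 3.1 CPM (Female sham), 1.89, 2.58 and 2.72 CPM (Female SNI), 1.71, 2.37 and 1.85 CPM (Male sham) and 3.09, 7.53 and 2.46 CPM (Male SNI). The log2 change of Cox4i2 was -0.49 ± 0.47 (SE, adjusted p = 0.667), and that of Ndufa4l2 0.40 ± 0.31 (SE, adjusted p = 0.568) averaged over the sexes and 1.14 ± 0.44 (SE, adjusted p = 0.242) in males (edgeR). The 7.53 CPM of Ndufa4l2 in Male SNI replicate 2 was the outlying value. Mural cell markers, which mark the vessel cells that often carry both genes, summed to between 79.1 and 92.3 CPM in Female SNI (sham 80.2 to 129) and between 72.0 and 81.0 CPM in Male SNI (sham 69.3 to 81.8). Cox6b2, known from testis, was at a low level in every library. Cox6b2 was measured at 6.29, 8.92 and 7.14 CPM in Female sham, 5.79, 6.39 and 7.56 CPM in Female SNI, 4.38, 6.35 and 5.09 CPM in Male sham and 7.15, 6.37 and 6.91 CPM in Male SNI. The male groups did not overlap, and the log2 change in males was 0.37 ± 0.25 (SE, adjusted p = 0.55) by edgeR.

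The common partners of these paralogs were plentiful. The levels of Cox4i1 were 478, 546 and 504 CPM in Female sham and 443, 487 and 492 CPM in Female SNI, with 438, 498 and 417 CPM in Male sham and 545, 592 and 437 CPM in Male SNI. Female sham libraries held 474, 683 and 528 CPM of Cox7a2 and Female SNI libraries 566, 523 and 463 CPM, while Male sham held 541, 585 and 509 CPM and Male SNI 619, 861 and 453 CPM. In each Male SNI replicate 2 was the highest library, and the log2 changes were 0.06 ± 0.09 (SE, adjusted p = 0.824) and 0.06 ± 0.14 (SE, adjusted p = 0.891) by edgeR. In Female sham Cox6b1 stood at 300.3, 334 and 315 CPM and in Female SNI at 362, 326 and 315 CPM, in Male sham at 309.9, 331 and 302 CPM and in Male SNI at 329, 248 and 316 CPM. For Cox8a the 3 libraries gave 389, 418 and 368 CPM in Female sham, 418, 416 and 380.2 CPM in Female SNI, 415, 414 and 392 CPM in Male sham and 442, 346 and 388 CPM in Male SNI. In these Male SNI replicate 2 was the lowest library, and the log2 changes were 0.00 ± 0.09 (SE, adjusted p = 0.999) and 0.00 ± 0.08 (SE, adjusted p = 0.993) by edgeR. Counts of Cox7b came to 194, 166 and 175 CPM in Female sham, 186, 187 and 168 CPM in Female SNI, 219, 200.02 and 252 CPM in Male sham and 228, 62.4 and 170.04 CPM in Male SNI. Cox7b was lowest in that library as well, with a log2 change of -0.26 ± 0.22 (SE, adjusted p = 0.598) by edgeR.

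Genes that build or feed the chain were also counted, with injury averaged over the sexes. Of 14 tested complex I assembly factors, 0 were called and the median log2 change was -0.12. Of 32 assembly factors of the other complexes, 1 fell and the median was -0.04. That gene was Atpaf1, a chaperone that places the F1 beta subunit. Normalised levels of Atpaf1 were 16.8, 15.8 and 20.8 CPM (Female sham), 8.91, 9.18 and 9.84 CPM (Female SNI), 16.3, 17.1 and 14.6 CPM (Male sham) and 14.7, 7.91 and 14 CPM (Male SNI). Its log2 change was -0.66 ± 0.17 (SE, adjusted p = 0.0276) by edgeR, and in females -0.94 ± 0.24 (SE, adjusted p = 0.0486). It was no longer called averaged over the sexes when any 1 of the 3 Female SNI libraries was left out, nor without Male sham replicate 1, Male sham replicate 2 or the third Female sham library. Of 18 tricarboxylic acid cycle genes 0 were called, with 13 negative and a median of -0.11, and the most abundant were Mdh2 (0.05), Mdh1 (-0.22) and Ogdh (-0.19). Of 4 tested cytochrome c and carrier genes and 14 fusion, fission and transport genes, 0 were called, with medians of -0.06 and -0.06. These zeros are from edgeR, where the same lists had 2, 4, 1 and 1 members at an unadjusted p below 0.05 (complex I assembly, cycle, carriers, fusion and fission). DESeq2 called Ndufaf2, an assembly factor of complex I, and Opa1, the inner-membrane fusion protein, both lower. Weighted limma called Opa1, Snph, an anchor of axonal mitochondria, and, of the cycle genes named above, Ogdh, all lower. Among the assembly factors of complexes II to V it called 1 higher and 1 lower. Neither tool called a carrier gene.

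Among 16 tested glycolysis genes 1 rose and 1 fell by edgeR. Pgk1, the first enzyme of glycolysis to yield ATP, rose. Pgk1 was measured at 67.7, 61.3 and 66.2 CPM in Female sham, 84.3, 82 and 78.7 CPM in Female SNI, 63.2, 63.2 and 63.6 CPM in Male sham and 94, 85.6 and 76.3 CPM in Male SNI. The fitted log2 change was 0.38 ± 0.08 (SE, adjusted p = 0.0125) (edgeR). Ldhb, the heart-type lactate dehydrogenase subunit, fell. The levels of Ldhb were 158, 190.1 and 169 CPM in Female sham and 121, 141 and 129 CPM in Female SNI, with 183, 174 and 188 CPM in Male sham and 136, 161 and 130.1 CPM in Male SNI. The log2 change of Ldhb was -0.38 ± 0.09 (SE, adjusted p = 0.0164) by edgeR. In both genes the SNI and sham groups did not overlap in either sex. Ldhb was no longer called without Female SNI replicate 1 or 3, while Pgk1 was called with any 1 library left out. More glycolysis genes fell elsewhere: DESeq2, weighted limma and edgeR without Male SNI replicate 2 each called 3 lower (Aldoc, Ldhb and Pfkm), edgeR without Male SNI replicate 1 called 2 (Ldhb and Pfkm), and edgeR without Male SNI replicate 2 and Female sham replicate 2 called 4, with Pfkl added, while 1 gene, Pgk1, rose in each. The median over the 16 was 0.03, and the most abundant, Aldoa, had -0.05. Among 15 tested regulators of mitochondrial biogenesis, 1 fell: Esrrg, an orphan nuclear receptor known to drive genes of oxidative metabolism. Female sham libraries held 14.1, 13.4 and 15.6 CPM of Esrrg and Female SNI libraries 9.1, 8.36 and 9.77 CPM, while Male sham held 14.4, 16.1 and 13 CPM and Male SNI 5.69, 10.1 and 8.49 CPM. The log2 change of Esrrg was -0.75 ± 0.16 (SE, adjusted p = 0.0116) by edgeR, and all SNI libraries were below all sham libraries in each sex. Ppargc1a, the coactivator that partners with it, had -0.33 ± 0.10 (SE, adjusted p = 0.0812) and did not pass in the edgeR fit. It was called lower by weighted limma, and by edgeR without Male SNI replicate 2 and Female sham replicate 2. These counts stand against the 6.52% of all tested genes that were called.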

How the data were processed

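Counts of 3′ reads per gene symbol, deposited by the authors as raw counts in 1 file per library, were read as given, per the file headers. The tools named in the submitters' processing notes are Bowtie2 and bedtools, with the build mm10; how strand, multiply mapped reads and duplicates were handled is not stated. Each file had 23282 rows, of which 44 repeated a symbol and were summed with it. Members and gene lists were chosen with earlier results of these data known.

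Genes were filtered with filterByExpr (minimum count 10), scaled by TMM factors (0.914 to 1.07) and fitted in 1 model of 12 libraries with a coefficient per group (edgeR 4.0.16, R 4.3.3). Two-sided quasi-likelihood F tests got Benjamini-Hochberg adjusted p-values over 15036 tested genes, with a threshold of 0.05, and 95% intervals used the standard error implied by F. DESeq2 1.42.0, limma 3.58.1 with sample quality weights, other scalings and filters, a replicate block and left-out libraries were alternatives. The test was tried on simulated data first. Same-numbered libraries of different groups deviated together (r above 0.1) in 4 of 18 pairs, so the numbers were not treated as pairs. Of the 4, 3 were the 3 pairs of Female sham with Male SNI (0.17, 0.56 and 0.13). These groups enter the averaged change with opposite signs and the interaction with the same sign. A deviation they share therefore partly cancels in the average and adds up in the interaction. The ribosomal row Rn45s held 6.14% to 11.2% of counts. Positions and promoters came from RefSeq on GRCm38.p6, exon overlaps and transcript ends from GENCODE.

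Named genes were, by rule, any member called, the most abundant member and the largest rise and fall in each complex, tissue-specific paralogs with their common forms, and, of the other lists, called genes and at most the 3 most abundant. Ndufa11, Uqcrc1, Ndufs6, Atp5k, Atp5h, Atp5j2, Ndufa5, Ndufb5, Ndufv2, Ndufs1, Ndufa1, Sdhc, Ppargc1a, Ndufaf2, Opa1 and Snph, and the genes in counts of 5 or fewer, were named after their values were seen. The result of a further gene is not reported here.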

Additional observations from a re-analysis of the deposited data

How the results depend on the processing

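Averaged over the sexes, the count of called members was 0 in the edgeR fit, 1 with DESeq2, 2 with limma and sample quality weights, and 0 to 2 when 1 library was left out (2 without Male SNI replicate 1, Atp5c1 and Uqcrc2, and 2 without Male SNI replicate 2, Ndufa11 and Uqcrc2). It was 3 without Male SNI replicate 2 and Female sham replicate 2, and 12 without Male SNI replicate 1 as well, a setting chosen after seeing the data. In females it was 0 in the edgeR fit, 5 with weighted limma, 0 to 4 with 1 library left out (4 without Male SNI replicate 2: Atp5k, Ndufa11, Ndufs6 and Uqcrc1), 3 without the 2 libraries and 6 without the 3. In males it was 0 in all settings but the last, with 2 (Ndufb5 lower, Sdhd higher). The interaction and the sham comparison had 0 in all 22 settings. The count over all genes ran from 626 to 2008 averaged over the sexes (980 in the edgeR fit), 155 to 1562 in females (435) and 137 to 698 in males (321). In females that all-gene count was 1562 with weighted limma, 1176 without Male SNI replicate 2 and 986 without the 2 libraries. Averaged over the sexes it was 2008, 1766 and 1848 in the same order. The cause of these shifts was not tested. The members' median, averaged over the sexes, was negative in every setting.

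Uqcrc2 kept its direction in all 22 settings, from -0.38 to -0.25, with an adjusted p below 0.05 in 7 of them and 0.00525 to 0.130 over all. With replicate number as a block, 1 member was called averaged over the sexes (Uqcrc2) and 0 in either sex, and the all-gene counts in each sex were 437 and 295; the shared numbers are not known to pair libraries. Under the block Cox6b1 turned to -0.0026 and Ndufa4 to -0.037.

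Changes near 0 turned sign. Cox8a turned to 0.0010 with DESeq2, 0.00090 with size factors by relative log expression, 0.0075 at a minimum count of 50, 0.067 with weighted limma, 0.069 without the 2 libraries and 0.020 without the 3. Cox6a1 turned to -0.0089 and Cox6b1 to -0.021 on unscaled totals, and Cox6b1 to -0.0019 with no filter. Uqcr10 turned to 0.0044 at a minimum count of 50, and Sdhd to -0.042 and Atp5g3 to 0.099 with weighted limma. Atp5g3 was 0.10 without the 2 libraries and 0.11 without the 3. Without the 3, Ndufa4l2 turned to -0.0080, Cox6a1 to -0.027, Cox6a2 to -1.61, Cox4i1 to -0.042, Cox7a1 to -0.45 and Cox7a2 to -0.10. With 1 library left out, the ranges were -0.039 to 0.064 for Cox6b1, -0.17 to 0.28 for Ndufa4, -0.38 to 0.30 for Cox7a1, -0.16 to 0.097 for Uqcr10, -0.13 to 0.16 for Atp5g3, -0.052 to 0.042 for Cox8a, -0.27 to 0.34 for Ndufa1, -0.25 to 2.005 for Cox6a2, -0.0075 to 0.051 for Cox6a1, -0.067 to 0.16 for Cox7a2, -0.68 to 0.63 for Sdhd and -0.17 to 0.0067 for Uqcrc1. The complex II sum turned to -0.023 without Sdhb, and the other sums moved by less than 1 SD between libraries, a spread as large as most of the ratios. Over all settings the ratio of all members (-0.06) ran from -0.11 to -0.02, complex I (-0.09) from -0.15 to -0.05, complex III (-0.10) from -0.20 to -0.04, complex V (-0.08) from -0.12 to -0.04, and complex IV from -0.055 to 0.038, so its sign was not settled. Members under 10 CPM had wide errors.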
